A study of Rattus norvegicus with 8 samples.

Results

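The genes described here mark the blood vessels of the brain: the endothelial cells that line them and the mural cells, pericytes and smooth muscle, that wrap them. They were chosen by name from a list of 38 genes, as the probe sets to which the array's annotation gives a single one of these symbols. This found 52 probe sets for 36 of the genes, among 14217 genes with such a probe set on the array. Cdh5 and Pdgfb had none, and the 6 probe sets that name a member together with another gene, all for Acta2 or Abcb1a, were left out. After a filter on low values, described with the first comparison, 38 probe sets for 32 of the genes were tested.

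Expression was measured on 8 Affymetrix whole-genome rat arrays, 1 per sample, with RNA from the brain of adult male Wistar rats of 250 to 300 g, taken 48 hours after 5 µl had been injected into the striatum. For 4 arrays, called baculovirus arrays here, the fluid held 50000000 particles of a baculovirus vector, an insect virus used to carry genes into mammalian cells, inactivated by 1 hour of ultraviolet light at 254 nm. For the other 4, the PBS arrays, it was phosphate-buffered saline, so both groups carry the needle injury. Labelling used 1 of 2 kits, and the labels do not say which for any array. The design text gives 7 rats and places PBS in the opposite striatum, and the labels tie no array to a rat, so arrays may share an animal and p-values measure the spread between these samples. PBS replicate 4 stands apart in markers of the choroid plexus, the tissue that secretes cerebrospinal fluid: Ttr, its main product, read 47.7 on it, while the remaining 7 arrays ran from 1563 to 1968. Results are therefore also given without that array.

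Capillaries of the brain form the blood-brain barrier. Their endothelial cells are joined by tight junctions, let few molecules pass between or through them, and instead carry nutrients in and drugs out with dedicated transporters. Pericytes lie against the capillary wall within a shared basement membrane, and smooth muscle cells surround arterioles and set their diameter. Receptors such as Kdr and Tek govern the growth and the resting state of the endothelium.

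The comparison asked whether vessel genes differ in brain that received the inactivated vector from brain that received saline. No vascular gene passed the test. Of the 38 probe sets, 0 had an adjusted p under 0.05 in limma, where 0% of all 18625 probe sets tested did, and the smallest adjusted p among the vascular genes was 0.714, for Tie1. At an unadjusted p under 0.05, 1 vascular probe set was higher after baculovirus and 0 were lower, against 2.51% and 4.22% of all probe sets. The methods' t-test gave the same counts of 1 and 0, and 0 after Benjamini-Hochberg adjustment. In 0 of the 38 probe sets did the groups not overlap, where 1.55% of all probe sets were higher and 2.31% lower without overlap.

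The means leaned upward after baculovirus in 4 classes and downward in 1. With 1 probe set per gene, 22 of 32 vascular genes had a higher mean after baculovirus and 10 a lower one, where 55.7% of all 10539 genes tested, and 53.7% of all probe sets, had a higher mean. The median log2 fold change was 0.046 for the vascular genes and 0.015 for all genes. By class it was 0.073 for 7 signalling genes, 0.045 for 10 junction and surface genes, -0.11 for 6 barrier transport genes, 0.063 for 6 pericyte genes and 0.19 for 3 smooth muscle genes. All are log2 fold changes of log2(intensity + 16), baculovirus over PBS. The quartiles over all genes tested were -0.065 and 0.094, and the medians of the signalling, junction and surface, and pericyte classes lay between them. In bulk tissue, fewer cells of a type and less RNA per cell cannot be told apart.

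**Figure D1:**
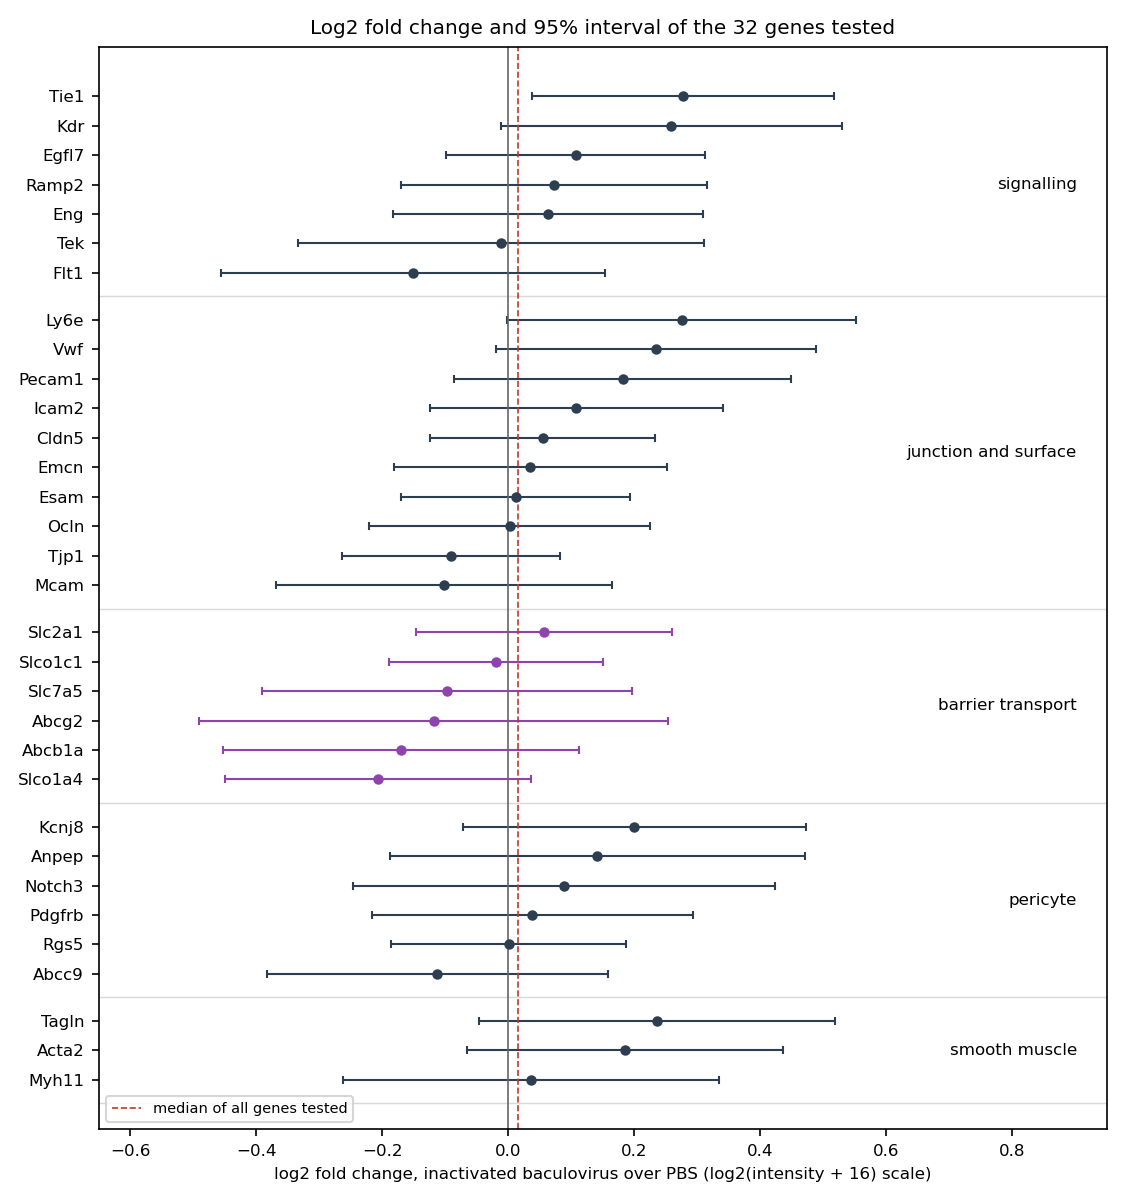
Log2 fold change of each vascular gene tested, inactivated baculovirus over PBS, with its 95% limma interval, by class (barrier transport in purple), 1 probe set per gene and 4 arrays per group. The interval of Tie1 alone lies wholly on one side of 0, and 5 of the 6 barrier transport genes lie below 0.

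The counts moved with single arrays. At an unadjusted p under 0.05 there were 2 vascular probe sets without baculovirus replicate 1, 5 without baculovirus replicate 4, 6 without PBS replicate 1, 0 without PBS replicate 3 and 7 without PBS replicate 4. The shares over all probe sets in those fits were 7.29%, 6.09%, 7.27%, 4.6% and 10.5%. The 7 without PBS replicate 4 were 5 higher, of Kcnj8, Acta2, Ly6e, Vwf and Tie1, and 2 lower, both of Abcb1a. Without that array, 18 of the 32 vascular genes had a higher mean. Tie1 was no longer under an unadjusted p of 0.05 without baculovirus replicate 1 or PBS replicate 3. Groups did not overlap for 1, 2, 5, 1 and 4 probe sets without baculovirus replicate 1, 3 or 4 or PBS replicate 1 or 4, while 8.59%, 6.89%, 6.82%, 7.89% and 10.1% of all probe sets did not. The 4 without PBS replicate 4 were those of Kcnj8, Vwf and Tie1, higher after baculovirus, and 1 of Abcb1a, lower. The adjusted p stayed at or above 0.382 for every vascular probe set whichever array was left out.

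Among signalling genes of the endothelium, Tie1 had the smallest p of all vascular genes. Tie1, an endothelial receptor tyrosine kinase that partners Tek, measured 67.7, 61.3, 57.6 and 63.4 in intensity on baculovirus replicates 1 to 4, against 47.8, 50.5, 38.9 and 59.2 on PBS replicates 1 to 4. Of the baculovirus arrays 3 lay above all PBS arrays, and baculovirus replicate 3 lay just below PBS replicate 4. With arrays median centred, the Tie1 groups did not overlap. The means were 62.5 ± 4.22 after baculovirus and 49.1 ± 8.36 after PBS (SD, n = 4 each). This is a log2 fold change of 0.28 (95% interval 0.037 to 0.52, limma adjusted p = 0.714). Tek, the angiopoietin receptor that keeps vessels quiescent, read 137, 121, 81.5 and 82.8 on the baculovirus arrays, against 96.3, 119, 116 and 88.1 on the PBS arrays. Baculovirus arrays held both its 2 highest and its 2 lowest values, and its log2 fold change was -0.012 (95% interval -0.33 to 0.31).

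The tested receptors for vascular endothelial growth factor, Kdr and Flt1, had means in opposite directions, each with an interval that spans 0. The difference between them was not tested. Kdr, the main growth receptor of the endothelium, read 73.4, 69.1, 59.9 and 47.1 on the baculovirus arrays, against 56.7, 52.2, 45.2 and 42.6 on the PBS arrays. Again 3 baculovirus arrays exceeded all PBS arrays, with replicate 4 among the PBS values. The log2 difference came to 0.26 (95% interval -0.012 to 0.53, limma adjusted p = 0.742). Flt1, a receptor that binds the same growth factor and acts in part as a decoy, read 46.9, 43.8, 69.0 and 48.5 on the baculovirus arrays, against 53.1, 79.1, 56.4 and 49.9 on the PBS arrays. Its mean thus ran the other way, at -0.15 on the log2 scale (95% interval -0.46 to 0.15). A second Flt1 probe set, below the filter and so left out of the main test, averaged 15.3 ± 3.09 after baculovirus and 10.5 ± 0.611 after PBS (SD). With no level filter it was higher after baculovirus at an unadjusted limma p under 0.05, as was Tie1. There 6.19% of all probe sets were under that p, and 0 vascular probe sets passed the adjusted threshold. The other Flt1 probe set, also below the filter, read 18.4 ± 6.46 against 18.1 ± 5.89. Flt4, the receptor of lymphatic endothelium, was below the filter at 8.90 ± 2.79 against 10.9 ± 2.50.

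The other signalling genes overlapped between groups as well. Ramp2, which forms the adrenomedullin receptor with Calcrl, read 212, 231, 203 and 218 on the baculovirus arrays, against 260, 208, 165 and 195 on the PBS arrays. Every baculovirus array lay inside the PBS range, and the log2 fold change was 0.073 ± 0.11 (SE). Egfl7, a protein that endothelial cells secrete into their matrix, had 2 tested probe sets, both with a higher mean, at 0.11 ± 0.095 and 0.20 ± 0.11. Eng, a co-receptor for transforming growth factor beta, stood at 0.063 ± 0.11. Nos3, the endothelial nitric oxide synthase, was below the filter, between 21.8 and 29.8 on the baculovirus arrays and between 13.2 and 27.1 on the PBS arrays.

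The promoters of the genes whose brightest probe set had the smallest p in each direction, Tie1 among those with a higher mean and Slco1a4 among those with a lower one, are shown with that of Acta2, the textbook smooth muscle gene. Each runs from 250 bases before to 50 bases after the annotated start, from RefSeq on rat build GRCr8. Capitals mark the ETS core, AGGAAG or CGGAAG on either strand, which endothelial transcription factors of the ETS family read, and CArG-like elements, read by serum response factor in smooth muscle. A CArG-like element is taken here as CC, 6 bases of which 5 are A or T, and GG.
Tie1 (chr5:137304932-137305231, minus strand): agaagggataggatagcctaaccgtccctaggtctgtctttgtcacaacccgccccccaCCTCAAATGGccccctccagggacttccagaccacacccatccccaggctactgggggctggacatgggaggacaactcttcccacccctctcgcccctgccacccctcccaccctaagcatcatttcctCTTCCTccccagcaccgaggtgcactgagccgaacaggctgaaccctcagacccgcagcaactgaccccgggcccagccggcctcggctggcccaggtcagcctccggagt
Slco1a4 (chr4:176495797-176496096, minus strand): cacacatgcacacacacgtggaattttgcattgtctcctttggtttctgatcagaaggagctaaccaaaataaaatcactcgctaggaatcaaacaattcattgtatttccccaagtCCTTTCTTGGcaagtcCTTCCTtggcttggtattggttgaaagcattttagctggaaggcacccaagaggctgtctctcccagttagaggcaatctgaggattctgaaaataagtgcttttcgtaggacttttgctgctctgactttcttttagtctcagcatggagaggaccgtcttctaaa
Acta2 (chr1:241172454-241172753, minus strand): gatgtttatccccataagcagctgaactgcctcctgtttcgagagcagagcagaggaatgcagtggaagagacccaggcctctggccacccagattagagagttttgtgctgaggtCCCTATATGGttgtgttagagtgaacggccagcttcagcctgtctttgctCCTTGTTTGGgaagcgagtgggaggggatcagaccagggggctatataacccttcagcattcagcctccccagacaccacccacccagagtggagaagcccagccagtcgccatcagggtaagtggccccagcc
Tie1 and Slco1a4 hold 1 ETS core and 1 CArG-like element each. Acta2 holds 2 CArG-like elements, CCCTATATGG from 134 to 125 bases and CCTTGTTTGG from 84 to 75 bases before the start, and no ETS core. Of 25 vascular genes with a promoter in the table, 11 held an ETS core and 6 a CArG-like element, or 44% and 24%, against 45.5% and 8.1% of all 33469 promoters. The 6 were Tie1, Kdr, Pdgfb, Ocln, Slco1a4 and Acta2, while the smooth muscle genes Cnn1 and Des held no CArG-like element. The full CArG box, with A or T at all 6 inner positions, was in 0 of the 25 and in 1.64% of all promoters. These matches describe the letters only.

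Junction and surface genes had a higher mean after baculovirus for 8 of 10 members. Ly6e, a membrane-anchored surface protein that interferon also induces in many cell types, read 723, 643, 711 and 553 on the baculovirus arrays, against 660, 502, 415 and 609 on the PBS arrays. The 2 highest values were from baculovirus arrays and the 2 lowest from PBS arrays, with the rest mixed. That is 0.28 on the log2 scale (95% interval -0.0018 to 0.55, limma adjusted p = 0.737), and a second probe set stood at 0.20 ± 0.11 (SE). Vwf, the clotting factor that endothelium stores and releases, read 101, 103, 119 and 135 on the baculovirus arrays, against 80.3, 98.4, 86.9 and 115 on the PBS arrays. That gave 0.23 ± 0.12, with PBS replicate 4 above the 2 lowest baculovirus arrays. Pecam1, the adhesion protein that joins endothelial cells to one another and to passing leukocytes, was near the filter's edge at 29.8 ± 5.76 after baculovirus and 24.3 ± 3.52 after PBS (SD, n = 4 each), or 0.18 ± 0.12 (log2 fold change ± SE).

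Tight junction genes, the seal of the barrier, had log2 fold changes on both sides of 0, each with an interval that spans it. Cldn5, the claudin on which that seal mainly rests, read 513, 579, 547 and 622 on the baculovirus arrays, against 548, 492, 610 and 528 on the PBS arrays. The ranges largely coincide, and the log2 fold change of 0.054 has a 95% interval of -0.12 to 0.23. Ocln, a second membrane protein of the tight junction, averaged 133 ± 13.9 after baculovirus and 133 ± 16.9 after PBS (SD). Tjp1, the scaffold beneath the junction, averaged 418 ± 31.8 and 446 ± 34.4 in the same order, or -0.091 ± 0.080 (log2 fold change ± SE). Ocln and Tjp1 are shared with epithelia, so they are not exclusive to vessels.

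The remaining surface genes also overlapped. Icam2, an adhesion molecule that resting endothelium displays, stood at 0.11 ± 0.11 (log2 fold change ± SE), Emcn, a sialomucin of capillaries and veins, at 0.035 ± 0.10, and Esam, an adhesion molecule of endothelial junctions, at 0.012 ± 0.084. Mcam, an adhesion molecule of both endothelium and mural cells, had 2 tested probe sets, at -0.10 ± 0.12 and 0.014 ± 0.14. For Ocln and Esam the sign turned negative when arrays were median centred, at -0.026 and -0.016.

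Barrier transport genes leaned down, with a lower mean for 5 of 6 members, and none passed. Slco1a4, an organic anion transporter of the capillary wall, read 275, 239, 274 and 224 on the baculovirus arrays, against 243, 305, 362 and 276 on the PBS arrays. The 3 highest values were from PBS arrays, and PBS replicate 1 was among the baculovirus values. The means were 253 ± 25.9 after baculovirus and 296 ± 50.5 after PBS (SD, n = 4 each), or -0.21 on the log2 scale (95% interval -0.45 to 0.037, limma adjusted p = 0.756). Its second probe set had the same direction, at -0.084 ± 0.14 (SE). Without PBS replicate 1, the first probe set was lower on all baculovirus arrays than on the PBS arrays left.

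Both probe sets of Abcb1a, the P-glycoprotein pump that returns drugs to the blood, had lower means. The first read 54.2, 48.0, 45.7 and 35.8 on the baculovirus arrays, against 53.2, 58.0, 63.9 and 40.3 on the PBS arrays. The second read 39.4, 39.1, 33.1 and 30.6 on the baculovirus arrays, against 41.6, 81.9, 52.4 and 33.2 on the PBS arrays. In each, baculovirus replicate 4 was the lowest array and PBS replicate 4 the lowest of its group. The log2 fold changes were -0.17 ± 0.13 (SE) and -0.36 ± 0.18 (limma adjusted p = 0.804 and 0.742). The second rests in part on 1 array, PBS replicate 2 at 81.9.

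Slc2a1, the glucose transporter of the barrier, was the 1 transport gene with a higher mean. It read 433, 423, 462 and 333 on the baculovirus arrays, against 398, 404, 367 and 407 on the PBS arrays. Baculovirus replicates 1 to 3 lay above every PBS array and replicate 4 below every one, and the log2 fold change was 0.056 ± 0.094 (SE). Slco1c1, which carries thyroid hormone and is shared with astrocytes, stood at -0.020 ± 0.079, Slc7a5, a large neutral amino acid transporter, at -0.098 ± 0.14, and Abcg2, a second drug efflux pump, at -0.12 ± 0.17. These 3 overlapped throughout.

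**Figure D2:**
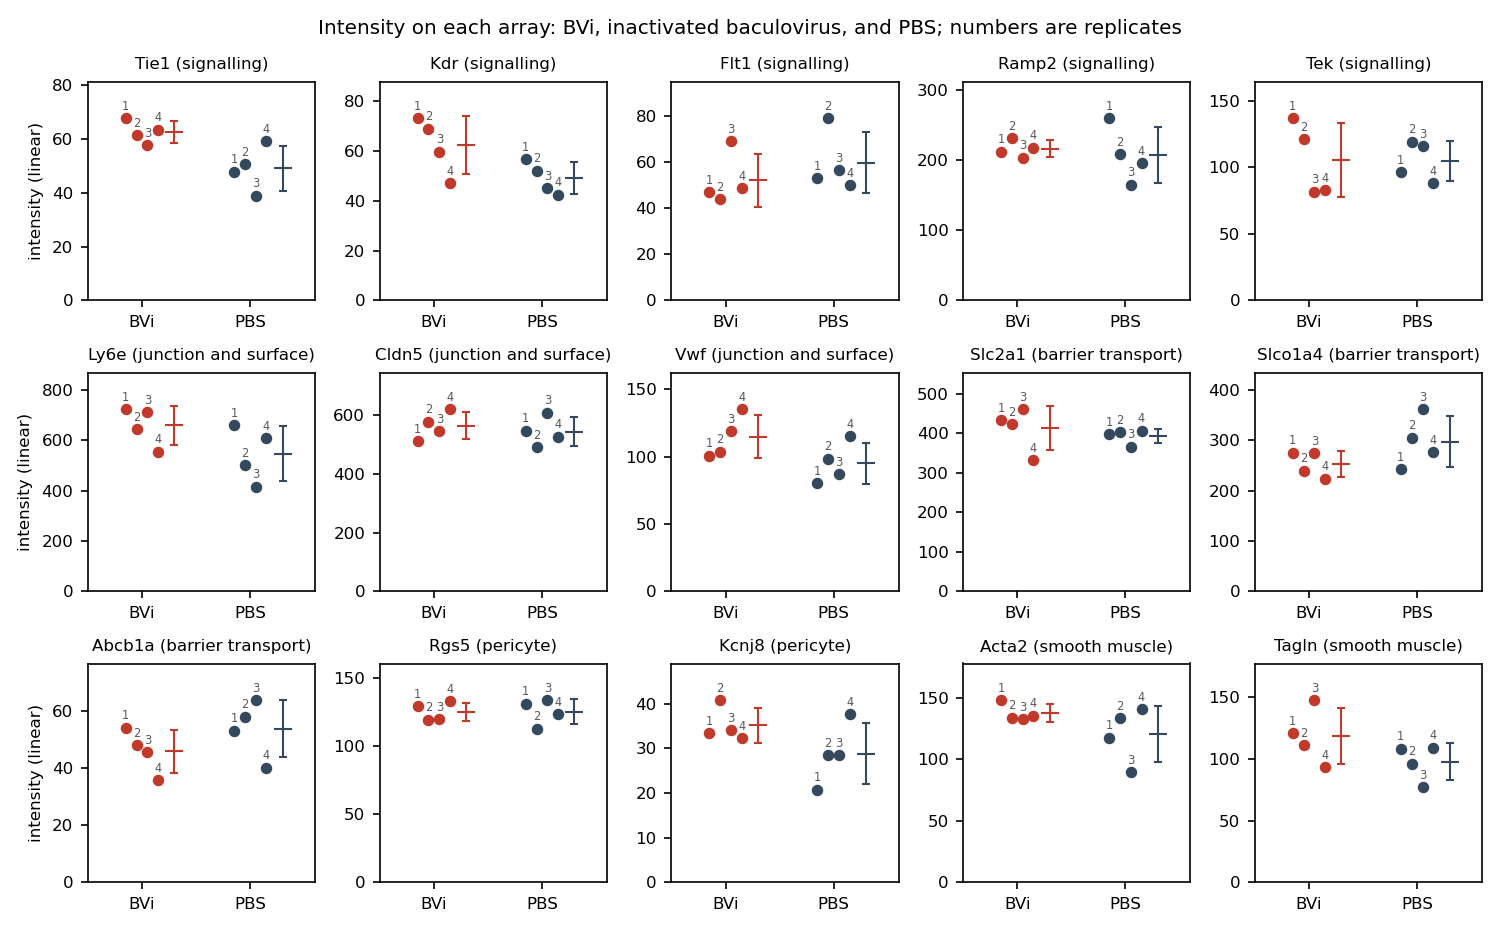
Linear intensity on each array for vascular genes of all 5 classes, with inactivated baculovirus (BVi, red) left of PBS (dark), points numbered by replicate, and bars for mean and SD over 4 arrays. The 2 groups overlap in every panel; 3 baculovirus arrays lie above all PBS arrays for Tie1, Kdr, Slc2a1 and Tagln.

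Pericyte genes had a higher mean for 5 of 6 members, each with an interval that spans 0. Rgs5, a regulator of G protein signalling and a standard pericyte marker, read 129, 119, 120 and 133 on the baculovirus arrays, against 131, 113, 134 and 124 on the PBS arrays. Rgs5 stood at 0.00064 on the log2 scale (95% interval -0.19 to 0.19), and its sign turned with quantile normalization and with median centring, at -0.0027 and -0.027. Pdgfrb, the receptor that recruits pericytes to endothelium, was dim and close to the filter, at 30.7, 30.2, 30.9 and 24.0 on the baculovirus arrays against 21.1, 27.6, 32.4 and 30.6 on the PBS arrays. Its log2 fold change was 0.038 ± 0.12 (SE), -0.0029 with quantile normalization, and its 2 other probe sets were below the filter. Neither of these genes separated the groups.

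Kcnj8, a pore subunit of the ATP-sensitive potassium channel of mural cells, had the smallest p of the class. It read 33.4, 40.8, 34.1 and 32.2 on the baculovirus arrays, against 20.7, 28.5, 28.5 and 37.6 on the PBS arrays, or 0.20 ± 0.13 (log2 fold change ± SE, limma adjusted p = 0.778). All baculovirus arrays lay above PBS replicates 1 to 3, and PBS replicate 4 above all but 1 of them. Abcc9 is the sulfonylurea receptor that pairs with Kcnj8 in that channel. Its 2 tested probe sets stood at -0.11 ± 0.13 and -0.00058 ± 0.11, and the difference from Kcnj8 was not tested. Anpep, a cell surface peptidase of pericytes, stood at 0.14 ± 0.15, and Notch3, the Notch receptor of mural cells, at 0.088 ± 0.16. For Notch3 the 4 baculovirus arrays, between 32.1 and 37.0, lay within a PBS range of 21.4 to 43.0.

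Smooth muscle genes had a higher mean for all 3 members tested, and none passed. Acta2, the smooth muscle actin, read 148, 134, 132 and 135 on the baculovirus arrays, against 118, 133, 89.7 and 141 on the PBS arrays, or 0.19 ± 0.12 (log2 fold change ± SE, limma adjusted p = 0.777). Tagln, an actin-binding protein of smooth muscle, read 121, 111, 148 and 93.5 on the baculovirus arrays, against 108, 96.1, 77.2 and 109 on the PBS arrays, or 0.24 ± 0.13 (adjusted p = 0.757). PBS replicate 3 was the lowest of 8 arrays for both. Myh11, the smooth muscle myosin heavy chain, stood at 0.036 ± 0.14, with baculovirus replicate 1 at 49.2 and PBS replicate 3 at 51.2 and the other arrays between 68.7 and 85.3. Cnn1, a calponin of the contractile apparatus, and Des, the muscle filament protein desmin, were below the filter, at 16.7 ± 2.51 against 16.5 ± 3.99 and at 23.3 ± 7.52 against 24.3 ± 6.94 (SD). Without PBS replicate 3 the class median of 0.19 was 0.068, and with no level filter, which adds Cnn1 and Des, it was 0.036.

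Summed over a class, the groups overlapped in 4 of the 5 classes. A class level averages the log2 values of its tested genes, each first centred on its own average across the 8 arrays. Signalling genes stood at 0.098, 0.085, 0.015 and -0.022 on the baculovirus arrays, against -0.041, 0.078, -0.11 and -0.098 on the PBS arrays. Junction and surface genes stood at 0.069, 0.050, 0.032 and -0.0092 on the baculovirus arrays, against -0.039, -0.019, -0.059 and -0.025 on the PBS arrays, and are the 1 class whose groups do not overlap. The gap between baculovirus replicate 4 and PBS replicate 2 there is small beside the range of either group. Ly6e, a member of this class, read 553 on that baculovirus array and 502 on that PBS array. With so small a gap the separation can rest on a single gene, and it was not tested without Ly6e. Their class median of 0.045 was 0.11 without PBS replicate 3 and 0.017 without PBS replicate 4.

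The other classes show which arrays carry their means. Barrier transport genes stood at -0.054, -0.063, 0.11 and -0.18 on the baculovirus arrays, against -0.069, 0.11, 0.11 and 0.028 on the PBS arrays. Pericyte genes stood at 0.0039, 0.11, 0.016 and -0.013 on the baculovirus arrays, against -0.23, -0.035, 0.0017 and 0.14 on the PBS arrays. Smooth muscle genes stood at 0.0037, 0.055, 0.25 and -0.0072 on the baculovirus arrays, against -0.0082, 0.017, -0.38 and 0.063 on the PBS arrays. Baculovirus replicate 4 was lowest for transport, PBS replicate 1 for pericyte and PBS replicate 3 for smooth muscle genes. The transport median of -0.11 was -0.065 without baculovirus replicate 1, -0.063 without baculovirus replicate 4, -0.060 without PBS replicate 3 and -0.18 without baculovirus replicate 3. The pericyte median of 0.063 was -0.0015 without PBS replicate 1, 0.041 without baculovirus replicate 1 and 0.13 without PBS replicate 4. The signalling median of 0.073 was 0.041 without baculovirus replicate 2 and 0.11 without PBS replicate 1 or 2.

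**Figure D3:**
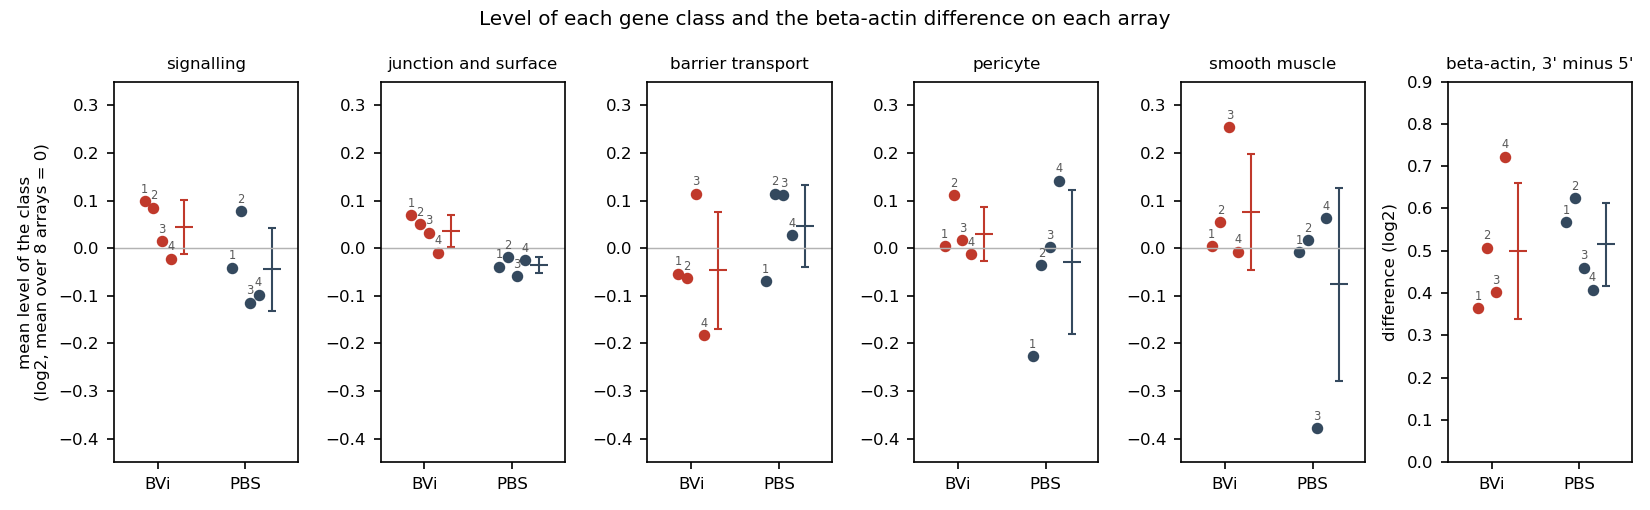
Mean log2 level of each class on each array, centred on the mean over 8 arrays, with inactivated baculovirus (BVi, red) left of PBS (dark), points numbered by replicate, and mean and SD over 4 arrays. The last panel gives the beta-actin 3' probe set minus the 5' one in log2 units, 0.72 on baculovirus replicate 4 and between 0.36 and 0.62 elsewhere.

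Vascular genes of 1 class mostly did not vary together over the 8 arrays. The median Pearson correlation between genes was -0.0086 within signalling, -0.13 within junction and surface, 0.19 within transport and 0.030 within pericyte genes. It was 0.46 within the 3 smooth muscle genes, from 3 pairs only. Between classes the median ran from -0.0082, signalling with junction and surface, to 0.14, signalling with smooth muscle. These correlations are given as a description, since all genes share the same 8 arrays. The closest pairs crossed class lines, Acta2 with Tie1 at 0.92 and Ly6e with Tagln at 0.91. The most opposed were Icam2 with Mcam and Vwf with Abcb1a, both at -0.85. These are the extremes picked from all pairs, and no coupling was tested.

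Other measures of the same arrays are given beside these values, and their part was not tested. The beta-actin 3' to 5' difference, a measure of RNA length and labelling, averaged 0.50 ± 0.16 after baculovirus and 0.52 ± 0.098 after PBS (SD, n = 4 each). Hbb, a haemoglobin chain of red cells, read 86.3, 430, 73.7 and 735 on the baculovirus arrays, against 63.3, 115, 46.6 and 488 on the PBS arrays. Replicate 4 of each group was the richest. Hbb was the 1 of 4 red cell markers on the array above the filter. Perivascular fibroblast markers had 6 of 10 members higher and 4 lower, with levels from -0.067 to 0.20 after baculovirus and -0.24 to 0.19 after PBS. Microglia markers had 9 higher and 1 lower, with levels from -0.22 to 0.31 against -0.31 to 0.20. Choroid plexus markers had 4 of 4 higher, with levels from 0.040 to 0.66 after baculovirus and -1.86 to 0.37 after PBS, the lowest being PBS replicate 4. Neuron markers had 2 of 8 higher and 6 lower, with levels from -0.096 to 0.022 against -0.099 to 0.10, and astrocyte markers 4 of 7 higher and 3 lower, from -0.020 to 0.034 against -0.053 to 0.019. Striatum markers, all 7 above the filter, had 2 higher and 5 lower, with levels from -0.20 to 0.21 after baculovirus and -0.25 to 0.27 after PBS.

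Around the members, 7 lists of genes that work with them held 82 tested genes, 51 with a higher mean and 31 with a lower one. None passed. At an unadjusted p under 0.05, 5 were higher and 1 lower, where the share over all genes tested was 2.66% higher and 3.92% lower. Groups did not overlap for 5, all higher, where 1.87% of all genes were higher and 2.31% lower without overlap.

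Growth factors and their partners had 8 of 14 genes higher and 6 lower. Notch1, the receptor that restrains vessel sprouting, read 146, 135, 148 and 165 on the baculovirus arrays, against 108, 129, 126 and 137 on the PBS arrays, or 0.22 ± 0.094 (log2 fold change ± SE). Apln, the ligand apelin, stood at -0.20 ± 0.097. In the Wnt and barrier programme of brain endothelium, 9 of 15 were higher and 6 lower. Tspan12, a partner of the Norrin receptor Fzd4, read 207, 171, 192 and 140 on the baculovirus arrays, against 204, 248, 251 and 232 on the PBS arrays, or -0.38 ± 0.11 (limma adjusted p = 0.686). Sox17, a transcription factor of arterial endothelium, stood at -0.20 ± 0.10. For Tspan12, of the PBS arrays only replicate 1 fell within the baculovirus range. Adgra2, a receptor that endothelium uses for Wnt signals in the brain, was the 1 gene of the list whose groups were apart, between 96.9 and 112 on the baculovirus arrays and between 87.3 and 95.9 on the PBS arrays, or 0.16 ± 0.086.

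Among other capillary transporters 6 of 12 were higher and 6 lower. Slc22a8, an organic anion carrier, read 87.6, 108, 99.9 and 88.8 on the baculovirus arrays, against 78.4, 81.4, 56.7 and 79.1 on the PBS arrays. The groups did not overlap, and the log2 fold change was 0.32 ± 0.11 (SE, limma adjusted p = 0.686). Lrp1, a scavenger receptor also found on pericytes, glia and neurons, did not overlap either, at 0.14 ± 0.067. Transcription factors of the endothelium had 7 of 12 higher and 5 lower, led by Hey2 at -0.27 ± 0.14 and Ets1 at -0.22 ± 0.12. Their groups overlapped.

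In the vascular basement membrane 8 of 9 genes were higher and 1 lower. Col4a2, a chain of its collagen network, read 148, 127, 109 and 111 on the baculovirus arrays, against 90.5, 94.6, 90.0 and 99.3 on the PBS arrays. The groups were apart, at 0.34 ± 0.10 (log2 fold change ± SE, limma adjusted p = 0.686). Col4a1, the other collagen chain of the list, was the 1 lower gene, at -0.078 ± 0.10 with groups that overlap. Sparc, a matrix protein, stood at 0.11 ± 0.072. Partners of the smooth muscle programme had 10 of 15 higher and 5 lower, led by Vtn, which pericytes express, at 0.23 ± 0.095 with groups apart, and Flna, a crosslinker of actin, at 0.22 ± 0.10.

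Genes of inflamed endothelium, on which leukocytes roll and adhere, were in part too dim to test. Of 9 on the array, 5 were tested. Sele, Selp, Icam1 and Madcam1 were below the filter, with Icam1 at 12.3 ± 8.67 after baculovirus and 9.13 ± 3.14 after PBS (SD, n = 4 each). Of those tested, 3 were higher and 2 lower. Vcam1, the adhesion molecule that binds lymphocytes, read 234, 196, 190 and 166 on the baculovirus arrays, against 205, 214, 193 and 198 on the PBS arrays, or -0.048 ± 0.097 (log2 fold change ± SE). The chemokine Cxcl10 stood at 0.56 ± 0.31 and the iron-binding protein Lcn2 at 0.23 ± 0.29, both with the largest value on baculovirus replicate 1.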

How the data were processed

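Brain RNA of 8 rat samples, 4 per group, was measured on 1-colour Affymetrix arrays. The deposited values are linear intensities per probe set, read with GCOS per the submitters' processing notes, which also name GCRMA, and the labels add that no GeneSpring output was supplied. The algorithm behind them is not stated. The mean trimmed by 2% at each end lay between 100.021 and 100.023 on every array, so the authors had scaled them.

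Every array column matched 1 sample. Of 31099 probe sets, 57 controls were left out. The annotation gives 1 symbol for 20826 others, several for 436 and none for 9780, and gene numbers matched to RefSeq changed 0 symbols. Values were turned into log2(intensity + 16), on which array medians spanned 5.74 to 5.85, under the limit of 0.2 for leaving them as deposited. Fold changes on this scale understate those of dim probe sets. The 18625 probe sets whose mean log2 value exceeded the 40th percentile of all (intensity about 26.0) were tested with limma 3.58.1 in R 4.3.3 (lmFit, eBayes with a variance trend, two-sided), baculovirus minus PBS, with Benjamini-Hochberg adjustment over all of them at 0.05. The number of arrays limits precision: the 95% interval reached 0.231 to either side for the median probe set. A gene is represented by its single-symbol probe set with the highest mean. Scripts were tested on simulated data.

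Members, classes, lists and the naming rule were chosen with earlier results of these data known. The rule gives array values for members with an unadjusted p under 0.05, with separated groups, with the highest mean or smallest p of their class, or in a fixed set, and names the 2 genes with the smallest p of each list around them. Values by array of Vwf, Vcam1 and the haemoglobin chain, and those of Adgra2 and Ttr, were added after they had been seen. Alternatives changed the pseudocount, normalization, filter, variance model, array weights, test, block and probe sets per gene, and left out each array. A covariate for the beta-actin difference and leaving out baculovirus replicate 4 with PBS replicate 3 were chosen with the data in view.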

Additional observations from a re-analysis of the deposited data

Results flagged for a closer look

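Of 88 groups of 4 arrays checked, over the tested probe sets and the class levels, 3 had 1 array far from the other 3 for the range of its group, where chance gives about 1 in 20. The Pdgfrb probe set tested was at 24.0 on baculovirus replicate 4 and between 30.2 and 30.9 on the other baculovirus arrays. The second tested probe set of Abcc9 reached 50.7 on PBS replicate 3, whereas the rest of its group ran from 37.7 to 38.8. The level of the smooth muscle genes was lowest on PBS replicate 3, at -0.38, the rest of the group running from -0.0082 to 0.063.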

How the results depend on the processing

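No vascular probe set passed the adjusted threshold under the 21 alternatives that count them, with 0 in each, and the lowest adjusted p of a gene was 0.382. Of 999 gene values recomputed, 956 kept their direction and 43 reversed, and 19 of 32 vascular genes, Tie1, Kdr, Ly6e, Slco1a4 and Abcb1a among them, kept it throughout. The count at an unadjusted p under 0.05, 1 as reported, was 3 with quantile normalization (7.01% of all tested), 2 with median centring (7.26%), 2 without a level filter (6.19%), 0 with the filter at the 60th percentile (7.36%), 4 with array weights (8.14%), 5 with the replicate block (6.29%), and 0 to 7 with 1 array left out (3.81% to 10.5%), against 6.73% as reported. It was 2 (4.42%) with baculovirus replicate 4 and PBS replicate 3 both left out, where 6 probe sets had groups apart (9.47%). Groups were apart for 1, that of Tie1, with median centring (4.04%), and for 0 to 5 with 1 array left out (5.15% to 10.1%), against 3.86% as reported. Same-numbered arrays deviated together at r between -0.0051 and 0.016, and none correlated best with its own number. The highest r with another number was also low, between 0.054 and 0.075. This check therefore cannot tell whether arrays share a rat. Genes with a higher mean numbered 14 of the 21 left by the 60th percentile filter, where the pericyte median was -0.056, and 18 to 23 of 32 with 1 array left out. The junction and surface median was 0.017 with median centring and 0.075 with array weights. The causes of these changes were not tested, except that the stricter filter leaves fewer genes.

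With 1 array left out, medians ran from 0.029 to 0.067 for all vascular genes, 0.041 to 0.11 for signalling, 0.017 to 0.11 for junction and surface, -0.18 to -0.060 for transport, -0.0015 to 0.13 for pericyte and 0.068 to 0.26 for smooth muscle genes, and 4 to 5 transport genes had lower means. Log2 fold changes that reversed ran from -0.13 to 0.085 for Tek, -0.021 to 0.13 for Eng, -0.023 to 0.18 for Ramp2, -0.062 to 0.066 for Ocln, -0.030 to 0.049 for Esam, -0.012 to 0.11 for Emcn and -0.066 to 0.021 for Slco1c1. They ran from -0.24 to 0.036 for Abcg2, -0.041 to 0.093 for Pdgfrb, -0.043 to 0.030 for Rgs5, -0.17 to 0.018 for Abcc9, -0.024 to 0.20 for Notch3, -0.057 to 0.16 for Myh11 and -0.054 to 0.53 for Lcn2. Reversals also came with array weights for Tek (0.038), Ocln (-0.026) and Rgs5 (-0.00088), with median centring for Ocln (-0.026), Esam (-0.016) and Rgs5 (-0.027), with quantile normalization for Pdgfrb (-0.0029) and Rgs5 (-0.0027), and with the actin covariate for Ocln (-0.0020). With both arrays left out they came for Tek (0.12), Ramp2 (-0.027), Slco1c1 (0.022), Notch3 (-0.016) and Myh11 (-0.071).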
